A study of Mus musculus with 6 samples.

Results

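The genes described here encode the enzymes, regulators and a carrier of sterol and fatty acid synthesis. A list of 35 gene symbols defined them. It held 18 enzymes that build sterols from acetyl-CoA and 11 that build, elongate or desaturate fatty acids. It also held the sterol carrier Stard4 and 5 genes of the SREBP transcription factors and the proteins that control them. These 5 are called SREBP regulators below. All 35 were among the 23390 genes of the deposited count table, and all 35 passed the filter on low counts that left 13740 genes for testing. C57BL/6 mice gave viable epithelial cells of the small intestine, sorted as positive for EpCAM, an epithelial surface protein, and negative for CD45, which marks leukocytes. Of the 6 libraries, 3 came from Vil.Cre Maf.flox mice, in which the villin promoter drives Cre in the intestinal epithelium to remove floxed Maf, and 3 from Maf.flox mice, the controls, which carry the floxed allele without Cre. The product of Maf is c-Maf, a bZIP transcription factor, and the comparison addresses what its loss changes in epithelial RNA. Cre was never present without the floxed allele, so effects of the recombinase and of Maf loss cannot be told apart. The labels give neither the age of the mice nor the number behind a library, so each p-value reflects only how far these libraries vary. Sex-linked reads, given below, put libraries of both sexes, and so of different mice, in each genotype. Whether libraries of the same sex came from separate mice is not given.

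Cells make cholesterol from acetyl-CoA by way of mevalonate, the isoprenoid farnesyl diphosphate, squalene and lanosterol. Fatty acids are made from the same acetyl-CoA, which ATP citrate lyase releases from citrate, through malonyl-CoA to palmitate, and elongases and desaturases then lengthen the chain and add double bonds. SREBP-2 and SREBP-1, encoded by Srebf2 and Srebf1, are membrane-bound factors that drive the genes of these pathways. SCAP escorts them to the Golgi for cleavage when membrane sterols are low, while the INSIG proteins retain them in the endoplasmic reticulum when sterols are high. The small intestine is a major site of cholesterol synthesis as well as of its absorption.

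The targeted gene fitted the labels: Maf had 16, 1 and 1 counts in Vil.Cre Maf.flox replicates 1, 2 and 3, against 9398, 5615 and 3893 counts in Maf.flox replicates 1, 2 and 3. Total counts ran from 17464355 to 24802525 per library. The epithelial genes Epcam and Vil1 had at least 37895 and 40519 counts in every library, and the CD45 gene Ptprc at most 44. By their Xist and Y-linked reads, there were 2 males and 1 female (replicate 3) among the Vil.Cre Maf.flox libraries and 1 male (replicate 1) and 2 females among the Maf.flox libraries. In bulk RNA of this kind, fewer cells of a type and less RNA per cell cannot be told apart.

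None of the 35 genes passed an adjusted p of 0.05 in edgeR's quasi-likelihood test, in a comparison in which 75 of 13740 genes did (0.546%). At an adjusted p of 0.1 only Elovl6 passed, beside 2.71% of all genes. By unadjusted p under 0.05 there were 8 members, all higher in Vil.Cre Maf.flox (Acat2, Mvk, Idi1, Lss, Acly, Fasn, Elovl6 and Fads2), against 7.11% of all genes in that direction and 9.25% in the other. DESeq2 called 2 members, Elovl6 and Fasn, where it called 5.08% of all genes. Fold changes below are log2 ratios of Vil.Cre Maf.flox over Maf.flox.

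Most of the differences were small and positive. The log2 fold change was above 0 in 30 of 35 members, against 48.4% of all genes, and its median over the members was 0.17, against -0.01 over all genes. That count was 23 of 35 without Maf.flox replicate 3 and with a term for sex, where the median was 0.14 and 0.094. The median was 0.32 without Maf.flox replicate 1 and 0.29 without Vil.Cre Maf.flox replicate 3. By sex-linked reads, the former fit held no male Maf.flox library and the latter no female Vil.Cre Maf.flox library. In 6 members the lowest Vil.Cre Maf.flox library lay above the highest Maf.flox library (Acat2, Idi1, Acly, Fasn, Elovl6 and Fads2), a pattern that 10.1% of all genes showed. None lay wholly below, as 10.5% of all genes did. For 29 of the 35 members the 95% interval of the fold change excluded a 2-fold difference in either direction. The median standard error of the log2 fold change was 0.165 over the members and 0.160 over all genes. In 27 of the 35 the highest Maf.flox library exceeded the lowest by a larger ratio than the one between genotypes. The share of all genes was not counted for this pattern or for the intervals.

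**Figure D1:**
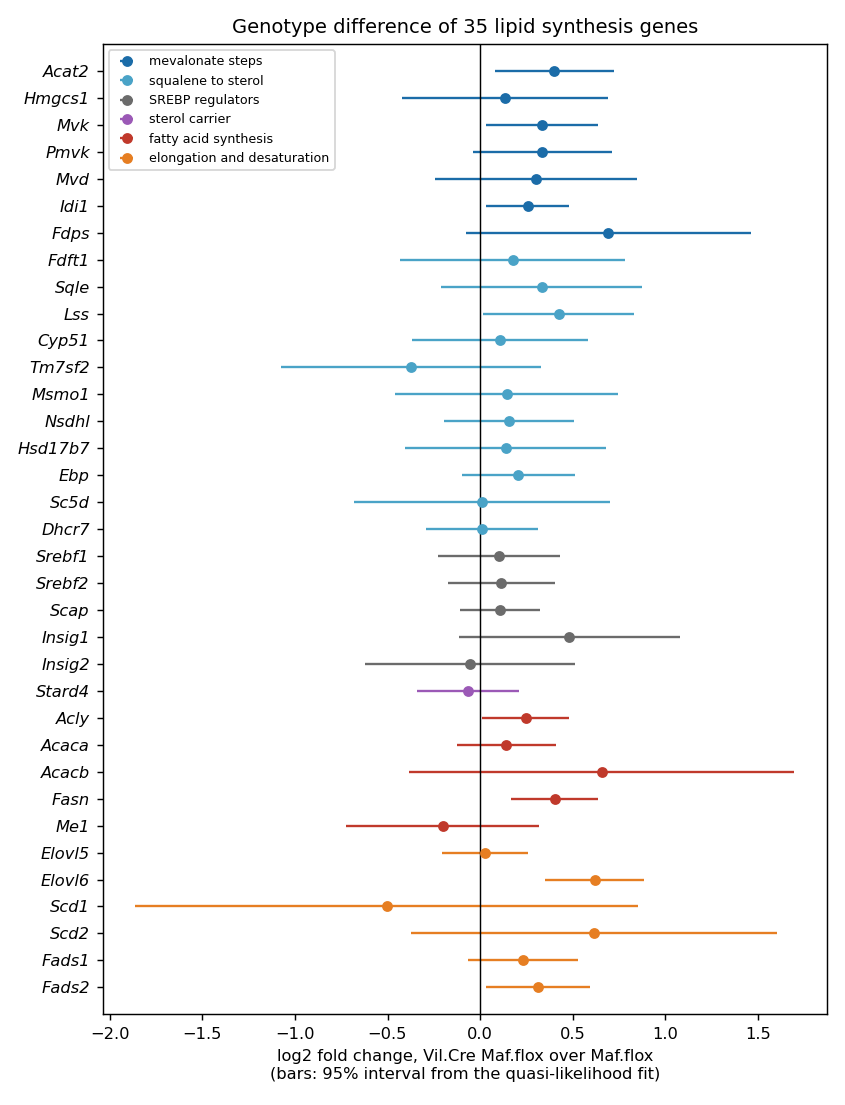
Genotype difference of each of the 35 genes, as log2 fold change of Vil.Cre Maf.flox over Maf.flox (x axis) with its 95% interval from the quasi-likelihood fit, coloured by role. Elovl6 lay at 0.62 with an interval of 0.35 to 0.89, and the widest intervals were those of Scd1, Acacb and Scd2.

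Elovl6 showed the smallest p of the 35 genes. Elovl6 (ENSMUSG00000041220, GRCm38 chr3:129532355-129638495, plus strand) encodes the elongase that lengthens palmitate to stearate. Its level was 199, 179 and 183 CPM (counts relative to library size, scaled between libraries by TMM) in Vil.Cre Maf.flox replicates 1, 2 and 3, against 139.6, 110.2 and 115 CPM in Maf.flox replicates 1, 2 and 3. Every Vil.Cre Maf.flox library was above every Maf.flox library, and the libraries of each genotype lay close together. The means were 187 ± 10.5 CPM in Vil.Cre Maf.flox and 122 ± 15.8 CPM in Maf.flox (SD, n = 3 each), with a log2 fold change of 0.62 (SE 0.118, edgeR adjusted p = 0.0657). The call depended on the fit. Elovl6 passed 0.05 in 5 of 15 alternative fits, with adjusted p between 0.000575 and 0.269 over all of them and a log2 fold change between 0.56 and 0.74. Among these were DESeq2, no filter on low counts (1.58% of all genes called), upper-quartile factors (0.75%) and the fit without Maf.flox replicate 3 (5%).

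Fasn and Acly, which act before the elongase, showed smaller differences of the same sign. Fasn (ENSMUSG00000025153, GRCm38 chr11:120805846-120824547, minus strand) encodes fatty acid synthase, which makes palmitate. Its level was 276, 259.8 and 238 CPM in the Vil.Cre Maf.flox libraries, against 192, 205 and 188 CPM in the Maf.flox libraries. The genotypes did not overlap, and both were tight. Fasn had a log2 fold change of 0.40 (SE 0.103, edgeR adjusted p = 0.114), and its adjusted p ran from 0.0129 with DESeq2 to 0.412 over the alternative fits. Acly, ATP citrate lyase, had 205, 188 and 180.0 CPM in Vil.Cre Maf.flox, against 153, 158 and 173 CPM in Maf.flox. The nearest libraries of the genotypes were close, and the log2 fold change was 0.25 (SE 0.103, edgeR adjusted p = 0.281).

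The acetyl-CoA carboxylases, which make malonyl-CoA, did not separate by genotype. Acaca, the cytosolic form, had 73.3, 69.1 and 66.0 CPM in Vil.Cre Maf.flox, against 68.4, 67.2 and 53.4 CPM in Maf.flox, with a log2 fold change of 0.14 (SE 0.117, edgeR adjusted p = 0.612). Acacb, the form at the mitochondrial membrane, had 4.16, 3.58 and 12.0 CPM in Vil.Cre Maf.flox, against 3.95, 4.79 and 3.89 CPM in Maf.flox. Replicate 3 of Vil.Cre Maf.flox alone stood high, and the other libraries overlapped. The log2 fold change of 0.66 (SE 0.448, edgeR adjusted p = 0.525) became -0.12 without that library. Me1, the cytosolic malic enzyme that supplies NADPH, ran from 6.19 to 8.40 CPM in Vil.Cre Maf.flox and from 6.40 to 11.1 CPM in Maf.flox, with a log2 fold change of -0.20.

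Among the desaturases, Fads2 had the highest mean level per length of all members and Scd2 the next. Fads2 (ENSMUSG00000024665, GRCm38 chr19:10064164-10101503, minus strand), which desaturates polyunsaturated fatty acid precursors, had 193, 189 and 178 CPM in Vil.Cre Maf.flox, against 133, 143 and 176 CPM in Maf.flox. The genotypes were separated only by the small gap between replicate 3 of each, and the log2 fold change was 0.31 (SE 0.123, edgeR adjusted p = 0.256). Fads1, the next desaturase of that path, ran from 27.8 to 33.2 CPM in Vil.Cre Maf.flox and from 22.2 to 29.1 CPM in Maf.flox, with a log2 fold change of 0.23 (edgeR adjusted p = 0.424). Elovl5, an elongase of polyunsaturated fatty acids, was nearly level between genotypes, at 0.03 (95% interval -0.21 to 0.26).

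Scd1 and Scd2 are paralogs that both make oleate from stearate, and in these cells Scd2 was far the higher. Scd2 had 612, 832 and 271 CPM in Vil.Cre Maf.flox, against 481, 372 and 268 CPM in Maf.flox. Replicate 3 was the lowest in both genotypes, the other Vil.Cre Maf.flox libraries were above all of Maf.flox, and the log2 fold change was 0.61 with a wide error (SE 0.413, edgeR adjusted p = 0.525). It was 0.26 without Vil.Cre Maf.flox replicate 2 and 0.95 without Vil.Cre Maf.flox replicate 3. Scd1 had 3.80, 15.4 and 3.94 CPM in Vil.Cre Maf.flox, against 13.5, 10.9 and 8.02 CPM in Maf.flox. Replicate 2 of Vil.Cre Maf.flox was the highest of all and the other replicates of that genotype the lowest, and the log2 fold change was -0.50 (SE 0.568, edgeR adjusted p = 0.727). Without that library the Scd1 value was -1.46 (edgeR adjusted p = 0.0789), and over all libraries left out in turn it ran from -1.46 to -0.17, with adjusted p up to 0.966. The ratio of Scd2 to Scd1 in FPKM, a unit scaled for gene length and library size, was 142.7, 48.0 and 61.0 in Vil.Cre Maf.flox, against 31.6, 30.1 and 29.6 in Maf.flox. The Maf.flox ratios agreed closely while those of Vil.Cre Maf.flox were all higher and scattered. Reads shared by the paralogs may have been divided or dropped in the authors' counting, which makes the ratio uncertain.

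**Figure D2:**
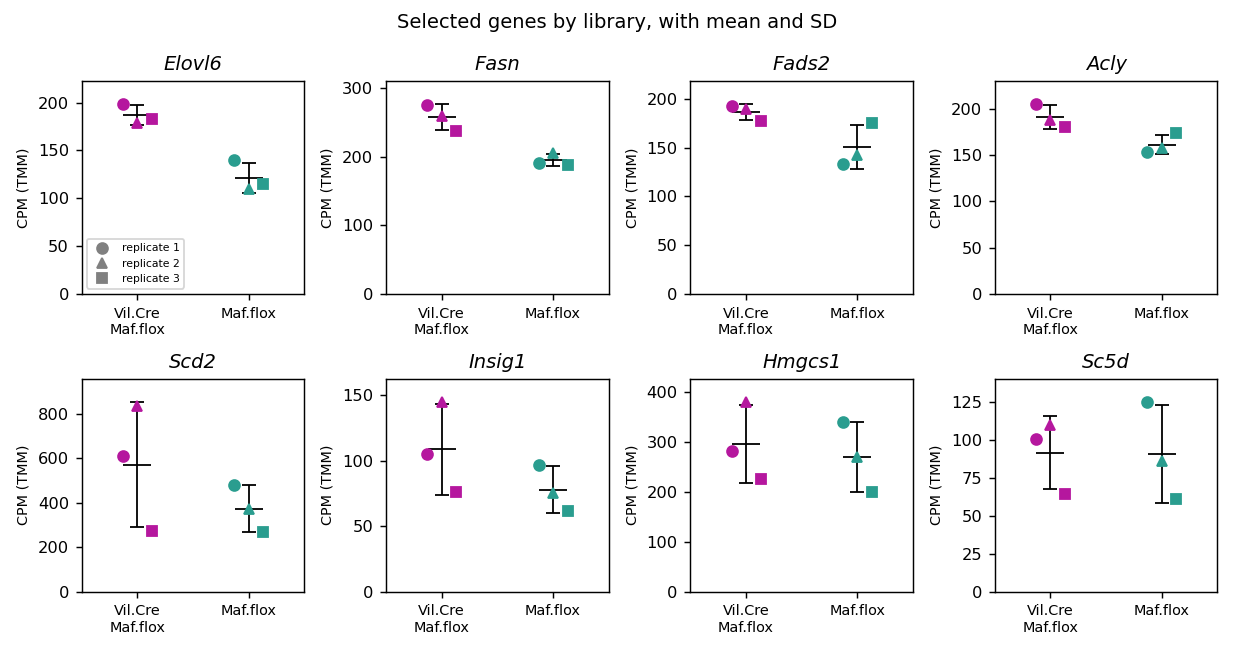
TMM-scaled CPM of 8 genes in each library (points, shaped by replicate number) with the mean and SD of each genotype (horizontal line and bar), Vil.Cre Maf.flox left of Maf.flox, each axis starting at 0. The genotypes do not overlap in Elovl6, Fasn, Fads2 and Acly, and they overlap in Scd2, Insig1, Hmgcs1 and Sc5d, where replicate 3 is the lowest of each genotype, as it is in Fasn.

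The mevalonate enzymes, which turn acetyl-CoA into farnesyl diphosphate, had the highest median of the role groups in this fit. All 7 had log2 fold changes above 0, between 0.13 and 0.69 with a median of 0.34, and none was called. Acat2, the cytosolic thiolase that makes acetoacetyl-CoA, had 65.9, 46.4 and 49.5 CPM in Vil.Cre Maf.flox, against 39.1, 44.2 and 39.4 CPM in Maf.flox. Replicate 1 of Vil.Cre Maf.flox stood out, the other libraries of that genotype were just above the Maf.flox libraries, and the log2 fold change was 0.40 (SE 0.141, edgeR adjusted p = 0.213) and 0.24 without that replicate. Idi1, which interconverts the isoprene building blocks, had 73.5, 66.2 and 65.2 CPM in Vil.Cre Maf.flox, against 59.7, 58.8 and 53.1 CPM in Maf.flox. The genotypes did not overlap, and the difference between them was larger than the range within either, with a log2 fold change of 0.26 (SE 0.098, edgeR adjusted p = 0.242).

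Hmgcs1, HMG-CoA synthase, was the mevalonate enzyme with the highest level per length. It had 283, 381 and 226 CPM in Vil.Cre Maf.flox, against 340.4, 270.2 and 201 CPM in Maf.flox. The genotypes overlapped widely, with a log2 fold change of 0.13 (SE 0.239, edgeR adjusted p = 0.838). The mevalonate kinase gene Mvk, the phosphomevalonate kinase gene Pmvk and the decarboxylase gene Mvd had log2 fold changes of 0.34, 0.34 and 0.30. Fdps, farnesyl diphosphate synthase, was listed at 1.90 to 4.99 CPM in all libraries. Its exons share 1124 bases with Gm43738 on the same strand, so its count is uncertain.

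The 11 enzymes from squalene to cholesterol differed less by genotype, with a median log2 fold change of 0.14, and 10 were above 0. Their direction was not stable: without Maf.flox replicate 3 the median was -0.062 with 4 of 11 above 0, and with a term for sex it was -0.046 with 4 of 11. Lss, which folds epoxidised squalene into lanosterol, had the smallest p of these, at 84.2, 85.3 and 56.4 CPM in Vil.Cre Maf.flox, against 63.8, 57.5 and 47.0 CPM in Maf.flox. Vil.Cre Maf.flox replicate 3 fell among the Maf.flox libraries, and the log2 fold change was 0.42 (SE 0.179, edgeR adjusted p = 0.288). Ebp, a sterol isomerase, had 117, 118 and 87.9 CPM in Vil.Cre Maf.flox, against 100.02, 95.1 and 84.7 CPM in Maf.flox, a log2 fold change of 0.21 (SE 0.134, edgeR adjusted p = 0.494). Here too replicates 1 and 2 of Vil.Cre Maf.flox were above all Maf.flox libraries and replicate 3 lay among them. Sqle, squalene epoxidase, and Fdft1, squalene synthase, had log2 fold changes of 0.33 and 0.17. Among the enzymes that remove the extra methyl groups of lanosterol, the log2 fold change was 0.15 for Nsdhl, 0.14 for each of Msmo1 and Hsd17b7 and 0.11 for Cyp51. Sc5d and Dhcr7, which act at the end of the path, were at 0.01 each. Tm7sf2, a sterol reductase, was at -0.37 (SE 0.298, edgeR adjusted p = 0.6). Fdft1 shares 774 exonic bases with Ctsb and Cyp51 166 with Akap9, both on the opposite strand, and Tm7sf2 shares 532 with Vps51 on the same strand. Whether counting used strand is not given in the sources used here, and strand could not separate Tm7sf2 from Vps51. How reads in shared bases were assigned is not given either, so these counts may include reads of the neighbour or lack reads of their own.

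Most sterol enzymes differed more between libraries of a genotype than between genotypes. In 15 of the 18 the ratio of the highest to the lowest library exceeded the fold between genotypes in each genotype. The exceptions were Acat2, Mvk and Idi1. That sets a range of single libraries beside a fold of averages, and the share over all genes was not counted. Replicate 3 was the lowest library of both genotypes in 17 of the 18 sterol enzymes (94.4%) and in all 11 from squalene onward, against 20.4% of all genes tested and 3 of the 11 fatty acid enzymes. Maf.flox replicate 3 was the lowest of the 6 libraries in 16 of the 18, against 13.6% of all genes tested. The summed level of the 18 was 1892, 2019 and 1377 CPM in Vil.Cre Maf.flox, against 1924, 1562 and 1205 CPM in Maf.flox. Replicates 1 and 2 of Vil.Cre Maf.flox and replicate 1 of Maf.flox were alike on this sum, and these are the 3 male libraries. Sqle shows the pattern, with 201, 199 and 129.7 CPM in Vil.Cre Maf.flox and 183, 131 and 107 CPM in Maf.flox. Sc5d had 100.3, 109.5 and 64.0 CPM in Vil.Cre Maf.flox, against 125, 85.7 and 60.9 CPM in Maf.flox. For Sc5d replicate 3 was lowest in each genotype, at close values, and the highest library was a Maf.flox one.

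The count of sterol enzymes above 0 was lower without Maf.flox replicate 3 and with a term for sex. Without that library 10 of the 18 were above 0, with a median log2 fold change of 0.07, against 17 and 0.19 with all libraries. A term for sex gave 10 of 18 and a median of 0.08, and the median difference was 0.05 within females and 0.05 within males. Female Vil.Cre Maf.flox and male Maf.flox had 1 library each, so sex and single libraries cannot be told apart. Without replicate 3 of both genotypes, a choice made after seeing the data, 17 of 18 were above 0 with a median of 0.22. In that fit 3 members passed 0.05 (Lss, Fasn and Fads2), beside 5.41% of all genes. It held no female Vil.Cre Maf.flox library, so the difference in sex between the genotypes remained. The 11 fatty acid enzymes moved less, with a median of 0.25 over all libraries, 0.18 to 0.30 when each library was left out and 0.24 with the sex term. Within females the median difference of the fatty acid enzymes was 0.14 and within males 0.36.

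**Figure D3:**
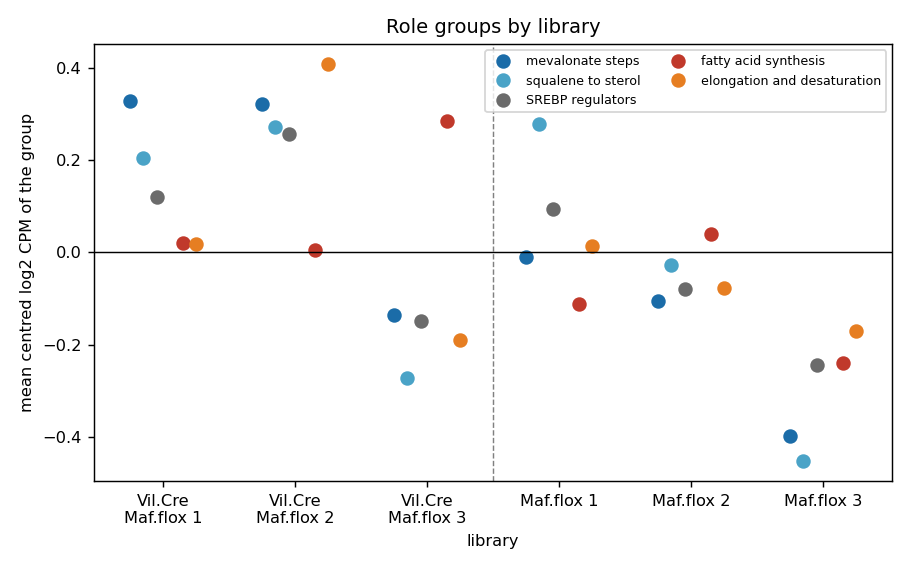
Mean level of each role group in each library, as log2 CPM centred on each gene's mean over the 6 libraries (y axis), with the Vil.Cre Maf.flox libraries left of the dashed line and the Maf.flox libraries right of it. The squalene to sterol genes are lowest in replicate 3 of each genotype, at -0.27 and -0.45.

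Markers of several cell types also differed between these libraries. The 6 goblet cell markers summed to 17633, 23807 and 12590 CPM in Vil.Cre Maf.flox, against 27765, 23017 and 12233 CPM in Maf.flox, lowest in the third replicate of each genotype like the sterol enzymes. Enterocyte markers summed to 9380, 11825 and 7437 CPM in Vil.Cre Maf.flox, against 21804, 21047 and 10452 CPM in Maf.flox, also lowest in replicate 3 of each genotype. All 10 had log2 fold changes below 0, with a median of -0.95. In the edgeR test 7 of the 10 had an unadjusted p under 0.05, against 9.25% of all genes in that direction. At an adjusted p of 0.1, 2 passed, beside 2.71% of all genes, and none was called at 0.05. The 7 crypt and stem cell markers summed to 2031, 2064 and 2731 CPM in Vil.Cre Maf.flox and to 2315, 2621 and 3214 CPM in Maf.flox, highest in the third replicate of each genotype. All 7 were also below 0, with a median log2 fold change of -0.25, and none was called. The 7 Paneth cell markers summed to 7140, 7126 and 10165 CPM in Vil.Cre Maf.flox and to 5117, 16968 and 31703 CPM in Maf.flox. The 7 enteroendocrine markers summed to 487, 375 and 259 CPM in Vil.Cre Maf.flox and to 426, 799 and 293 CPM in Maf.flox, again lowest in replicate 3 of each genotype. Tuft cell markers summed to 13.7, 12.98 and 13.99 CPM in Vil.Cre Maf.flox, against 30.6, 62.1 and 15.5 CPM in Maf.flox. All 6 tuft markers tested, of 7, were below 0 with an unadjusted p under 0.05 and a median log2 fold change of -1.60, and none was called. The part of these cell types in the levels of the sterol enzymes was not tested. Summed leukocyte markers were 21.4 to 28.7 CPM in Vil.Cre Maf.flox and 19.3 to 28.4 CPM in Maf.flox, and stromal markers 3.12 to 6.29 CPM in Vil.Cre Maf.flox and 2.56 to 5.05 CPM in Maf.flox.

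**Figure D4:**
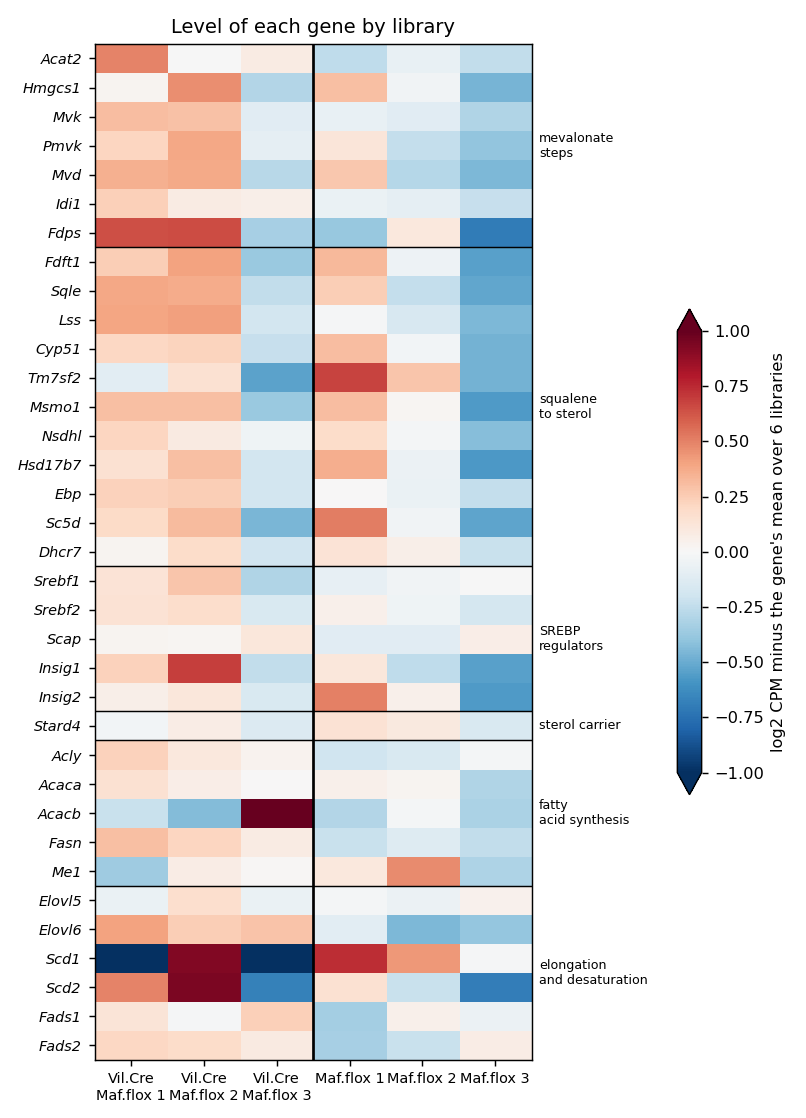
Level of each gene in each library, as log2 CPM minus the gene's mean over the 6 libraries (colour; values beyond -1 or 1 take the end colours), genes grouped by role and Vil.Cre Maf.flox columns left of Maf.flox. Most sterol enzymes are blue in the column of replicate 3 of each genotype, and Elovl6, Fasn and Idi1 are red in Vil.Cre Maf.flox and blue in Maf.flox.

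The SREBP regulators did not separate by genotype. Srebf2 had 380.4, 389 and 309 CPM in Vil.Cre Maf.flox, against 357, 333 and 305 CPM in Maf.flox, with a log2 fold change of 0.12 (95% interval -0.17 to 0.40, edgeR adjusted p = 0.713). Srebf1 had 122, 135 and 90.1 CPM in Vil.Cre Maf.flox, against 105, 108 and 111 CPM in Maf.flox, with a log2 fold change of 0.10 (95% interval -0.23 to 0.43, edgeR adjusted p = 0.789). The third Vil.Cre Maf.flox library was the lowest for Srebf1, below all Maf.flox libraries, and both genes overlapped. Scap had 66.0, 65.6 and 69.9 CPM in Vil.Cre Maf.flox, against 59.6, 59.7 and 67.8 CPM in Maf.flox, a log2 fold change of 0.11 (95% interval -0.11 to 0.32). It was highest in the third replicate of each genotype, unlike the sterol enzymes.

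Insig1, itself a target of the SREBPs, had the largest difference of the regulators without passing the test. It had 105, 145 and 75.7 CPM in Vil.Cre Maf.flox, against 96.7, 75.3 and 61.4 CPM in Maf.flox, with a log2 fold change of 0.48 (SE 0.255, edgeR adjusted p = 0.405). Replicates 1 and 2 of Vil.Cre Maf.flox were above all Maf.flox libraries and replicate 3 was not. The log2 fold change was 0.23 when replicate 2 of Vil.Cre Maf.flox was left out and 0.69 when its replicate 3 was. Insig2, its paralog, had 45.3, 47.1 and 39.1 CPM in Vil.Cre Maf.flox, against 61.8, 45.1 and 29.4 CPM in Maf.flox, with a log2 fold change of -0.05 (SE 0.244, edgeR adjusted p = 0.94). Its Maf.flox libraries spanned those of Vil.Cre Maf.flox on both sides. Stard4, which moves cholesterol between membranes, had 346, 371 and 319.9 CPM in Vil.Cre Maf.flox, against 389, 377 and 317 CPM in Maf.flox, and its log2 fold change was -0.06 (95% interval -0.34 to 0.21).

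Per length, the members spanned a wide range of levels. Mean FPKM was 124 ± 5.11 in Vil.Cre Maf.flox and 99.3 ± 14.4 in Maf.flox for Fads2, and 105 ± 51.6 in Vil.Cre Maf.flox and 68.3 ± 20.0 in Maf.flox for Scd2 (SD, n = 3 each). Stard4 followed with 62.0 ± 4.31 FPKM in Vil.Cre Maf.flox and 64.4 ± 7.14 in Maf.flox, and Hmgcs1 with 64.7 ± 16.9 in Vil.Cre Maf.flox and 58.7 ± 15.6 in Maf.flox. Stard4 and Hmgcs1 do not differ from each other beyond their spread. At the low end were Acacb with 0.685 ± 0.492 FPKM in Vil.Cre Maf.flox and 0.435 ± 0.0490 in Maf.flox, Fdps, Scd1 and Me1. Srebf2 was 2.27 to 2.69 times as high as Srebf1 in the Vil.Cre Maf.flox libraries and 2.16 to 2.68 times in the Maf.flox libraries, on the FPKM scale.

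**Figure D5:**
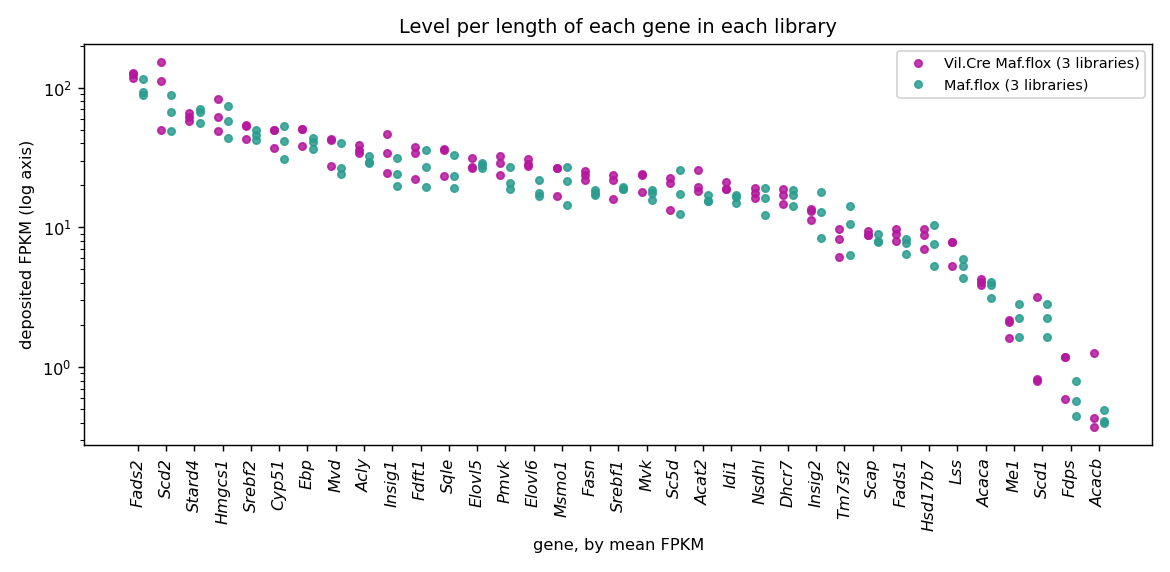
Deposited FPKM (log axis) of the 35 genes in each library, ordered by mean FPKM, with Vil.Cre Maf.flox points left of Maf.flox points for each gene. Fads2, Scd2, Stard4, Hmgcs1 and Srebf2 are highest, and Acacb, Fdps, Scd1 and Me1 lowest.

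Promoters of the members were read because the sterol enzymes varied together across libraries. RefSeq sequence of the GRCm38.p6 build, from 250 bases before to 50 after the annotated start, was matched for 28 of the 35 members (37 windows). SREBPs bind sterol regulatory elements, commonly beside binding sites of NF-Y, which reads CCAAT, and Sp1, which reads the GC box. Shown are the bases before the start of Hmgcs1 (chr13:119690101-119690350, plus strand) and Mvk (chr5:114444019-114444268, plus strand) for the mevalonate enzymes, and of Fasn (chr11:120824548-120824797, minus strand) and Elovl6 (chr3:129532136-129532354, plus strand) for the fatty acid enzymes with the smallest p. Capitals mark CCAAT or its complement ATTGG and, in Hmgcs1, TCACCCCAC, the match to the sterol regulatory element.
Hmgcs1: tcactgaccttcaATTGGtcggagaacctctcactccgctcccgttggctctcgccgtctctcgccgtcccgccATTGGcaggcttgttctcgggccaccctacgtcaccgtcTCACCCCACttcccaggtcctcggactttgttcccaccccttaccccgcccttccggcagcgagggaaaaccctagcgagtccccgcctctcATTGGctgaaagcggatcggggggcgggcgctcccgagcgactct
Mvk: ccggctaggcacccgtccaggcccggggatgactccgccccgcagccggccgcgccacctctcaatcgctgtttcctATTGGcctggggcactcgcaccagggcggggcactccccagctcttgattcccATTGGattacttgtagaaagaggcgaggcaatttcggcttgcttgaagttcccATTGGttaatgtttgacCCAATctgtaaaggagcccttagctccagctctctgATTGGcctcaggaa
Fasn: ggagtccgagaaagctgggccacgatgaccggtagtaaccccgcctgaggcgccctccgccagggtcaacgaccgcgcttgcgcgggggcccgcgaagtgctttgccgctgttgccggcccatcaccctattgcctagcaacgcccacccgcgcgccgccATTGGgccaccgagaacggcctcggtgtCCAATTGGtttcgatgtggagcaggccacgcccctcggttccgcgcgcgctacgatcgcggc
Elovl6: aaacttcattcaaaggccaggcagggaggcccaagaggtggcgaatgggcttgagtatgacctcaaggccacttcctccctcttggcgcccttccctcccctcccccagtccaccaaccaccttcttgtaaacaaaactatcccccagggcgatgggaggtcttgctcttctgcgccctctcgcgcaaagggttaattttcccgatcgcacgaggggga
In the printed stretch of Elovl6 neither motif occurs.

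Searched on both strands, CCAAT was in 23 of the 28 members with a window (82.1%), against 43.3% of the 9942 tested genes with one. It was in 9 of 9 squalene to sterol genes, 5 of 6 mevalonate genes and 4 of 5 SREBP regulators. Of Acly, Acaca, Acacb, Fasn and Me1, 4 of 5 had it, and 1 of 3 elongation and desaturation genes did. High shares were therefore not limited to the sterol enzymes, and a link of CCAAT to levels across libraries was not tested. The GC box GGGCGG was in 22 of 28 (78.6%), against 67.8% of tested genes, and the E-box CACGTG in 6 (21.4%), against 11.7%. The SRE-like motif TCACNCCAC was in 1 member (3.57%), Hmgcs1 at position -137 from the start, against 1.42% of tested genes. TGCTGA, part of the Maf recognition element, was in 4 of 28 members (14.3%), against 17.8% of tested genes. These are matches of letters in short windows, and no binding was measured.

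Other genes of the pathways, from lists chosen beside the members, gave no call either. Of 10 further sterol genes tested, 7 had a log2 fold change above 0, and the smallest p values were those of Tmem97 and Npc1. Tmem97, a sterol-responsive membrane protein, had 108, 89.7 and 86.6 CPM in Vil.Cre Maf.flox, against 73.8, 78.4 and 77.0 CPM in Maf.flox (log2 fold change 0.31, edgeR adjusted p = 0.214). Npc1, which exports cholesterol from lysosomes, had 23.3, 30.6 and 23.6 CPM in Vil.Cre Maf.flox, against 45.7, 37.6 and 26.8 CPM in Maf.flox (log2 fold change -0.51, edgeR adjusted p = 0.256). Tmem97 did not overlap between genotypes and Npc1 did. A list of 12 genes was chosen mainly for the processing or degradation of SREBPs and sterol enzymes. It also held the transcription factor gene Nfe2l1, and 7 of the 12 were above 0. March6, a ubiquitin ligase known to degrade squalene epoxidase, had 149.5, 157 and 155 CPM in Vil.Cre Maf.flox, against 249.9, 252 and 188 CPM in Maf.flox. The genotypes did not overlap, and the log2 fold change was -0.58 (SE 0.13, edgeR adjusted p = 0.0867). Rnf145, another ubiquitin ligase of the endoplasmic reticulum, had 116, 75.05 and 97.1 CPM in Vil.Cre Maf.flox, against 58.4, 71.3 and 69.1 CPM in Maf.flox. Its genotypes did not overlap either, and the log2 fold change was 0.54 (SE 0.161, edgeR adjusted p = 0.16).

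Of 21 further lipogenic genes tested, from a list of 27 in the table, 14 were above 0, with a median log2 fold change of 0.10. Elovl7, an elongase of saturated very long chains, had 138, 139 and 120.4 CPM in Vil.Cre Maf.flox, against 106, 92.9 and 101 CPM in Maf.flox (log2 fold change 0.41, edgeR adjusted p = 0.117). Hsd17b12, the reductase that works with the elongases, had 196, 174 and 159 CPM in Vil.Cre Maf.flox, against 136, 131 and 135 CPM in Maf.flox (log2 fold change 0.39, edgeR adjusted p = 0.131). Neither gene overlapped between genotypes, and neither passed 0.05.

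Genes listed for LXR, the nuclear receptor that senses sterol excess, lay mostly below 0. The list held its targets and the receptor genes Nr1h2 and Nr1h3. There were 8 of 10 below 0, beside 51.6% of all genes, the median log2 fold change was -0.25, and none was called. The median was -0.091, with 6 of 10 below 0, without Maf.flox replicate 1, and -0.11, also with 6 of 10, without Vil.Cre Maf.flox replicate 3. Mylip, a ubiquitin ligase induced by LXR, had 3.65, 3.99 and 2.18 CPM in Vil.Cre Maf.flox, against 6.81, 8.95 and 6.26 CPM in Maf.flox. Every Vil.Cre Maf.flox library was lower, and the log2 fold change was -1.17 (SE 0.267, edgeR adjusted p = 0.0891). Abcg8, a subunit of the pump that returns sterols to the gut lumen, had 129.8, 161 and 118 CPM in Vil.Cre Maf.flox, against 251, 219.8 and 136 CPM in Maf.flox. Replicate 2 of Vil.Cre Maf.flox lay above the lowest Maf.flox library, so the genotypes overlapped, and the log2 fold change was -0.57 (SE 0.226, edgeR adjusted p = 0.268). Enterocyte markers, lower in the Vil.Cre Maf.flox libraries as given above, moved in the same direction, and their part in these values was not tested.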

How the data were processed

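RNA was sequenced from 6 libraries, 3 per genotype. The submitters' processing notes name HISAT2 2.0.5, the counter featureCounts 1.5.0-p3 and also DESeq2, and as genome GRCm38, called mm10. As deposited, counts are whole reads per gene with no normalisation by the authors. The FPKM deposited by the authors are counts scaled by gene length and library size, used here only for levels. Whether the libraries kept strand is open in the labels' protocols. Spreadsheet dates were restored to 24 gene symbols by identifier.

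Genotype was tested on these counts by edgeR 4.0.16 under R 4.3.3 (filterByExpr with a least count of 10, TMM scaling, robust quasi-likelihood F test, genotype as the only term, Benjamini-Hochberg over 13740 genes, called at 0.05). The standard error is the log2 fold change over the square root of F. CPM are TMM-scaled, and log2 CPM use a prior count of 2. With these depths 1 CPM is 17.5 to 24.8 counts. The members and all lists were chosen with earlier results of these data known. Values in each library are given for members with adjusted p of at most 0.1, the 2 smallest p of each role group, the SREBP regulators, the 3 highest by FPKM and 2 paralog pairs, and for other lists for the 2 smallest p. Sqle, Hmgcs1 and Sc5d were added after their values were seen. Alternatives were RLE and upper-quartile factors, no filter, a stricter filter (1 CPM in 3 libraries), DESeq2 1.42.0, limma-voom (limma 3.58.1), a replicate block, a sex term, other thresholds and each library left out. The fits were tested on simulated data.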

Additional observations from a re-analysis of the deposited data

How the results depend on the processing

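Over 15 alternative fits the 35 members gave 525 log2 fold changes, of which 487 kept direction and side of the threshold, 9 newly passed it and 29, in 13 members, turned sign. Over all genes, 75 were called, against 365 without a filter, 742 with DESeq2, 30 with limma-voom, 38 with the sex term, 2 and 372 at thresholds of 0.01 and 0.1, 745 without replicate 3 of both genotypes (chosen after seeing the data), and 8 to 701 with each library left out; the low end came from dropping replicate 3 of Vil.Cre Maf.flox and the high end from dropping replicate 3 of Maf.flox. Against 0 members called, upper-quartile factors and no filter each called 1 (Elovl6, adjusted p = 0.0441 and 0.00764), DESeq2 called 2 (Elovl6 at 0.000575 and Fasn at 0.0129), and leaving out each library called 0 to 1 (Elovl6 at 0.0439 without Maf.flox replicate 3). The threshold of 0.1 passed 1, and the fits without replicate 3 of both genotypes called 3 (Lss at 0.0428, Fasn at 0.0491, Fads2 at 0.0379). Over all alternatives the adjusted p ran from 0.0428 to 0.695 for Lss and from 0.0379 to 0.650 for Fads2. The causes were not tested.

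The numbers shared by libraries of both genotypes were checked for pairing and not taken as pairs: same-numbered libraries had deviations correlated at 0.092, -0.026 and 0.27, and replicate 2 of Vil.Cre Maf.flox correlated best with replicate 1 of Maf.flox (0.33). The replicate block called 440 genes and 1 member (Elovl6, adjusted p = 0.0130). In that fit the log2 fold change of Insig2, which was not called, turned sign to 0.0051.

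Sign changes were also at 0.0010 for Insig2 with limma-voom and, with the sex term, at -0.048 for Hmgcs1, -0.046 for Fdft1, -0.046 for Cyp51, -0.069 for Msmo1, -0.017 for Hsd17b7, -0.22 for Sc5d and -0.075 for Dhcr7. Acacb was at -0.16 without replicate 3 of both genotypes. With each library left out, log2 fold changes ran from -0.071 to 0.34 for Hmgcs1, -0.019 to 0.41 for Fdft1, -0.069 to 0.32 for Cyp51, -0.062 to 0.36 for Msmo1, -0.070 to 0.40 for Hsd17b7, -0.21 to 0.32 for Sc5d, -0.086 to 0.11 for Dhcr7, -0.0057 to 0.25 for Srebf1, -0.29 to 0.25 for Insig2, -0.15 to 0.0034 for Stard4, -0.12 to 0.96 for Acacb, -0.38 to 0.016 for Me1 and -0.040 to 0.074 for Elovl5.

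With 3 libraries per genotype, and 2 in a genotype when a library is left out, small changes of members with a wide interval (Scd1, Scd2, Acacb) were not detectable.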
